A study of Mus musculus with 120 samples.

Results

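The 6 libraries described here came from mouse bone-marrow-derived macrophages that had received halofuginone at 625, 2500 or 10000 nM together with 2 mM proline and carried the time label 4 (T4). They are 6 of the 120 libraries of the series, 2 at each dose, and were picked by their labels. The dose groups were chosen with earlier results of these data known. They were compared with the 12 control libraries at T4. Per the labels, all cells were wild type, from male C57BL/6 mice 12 weeks of age, and had been transduced with a virus that the labels name 58-TF-seq, controls included. The macrophages were grown with serum and CMG until day 9 and replated in 96-well format. The small molecule was given 30 minutes before lipopolysaccharide (LPS), the bacterial cell wall component that activates macrophages through TLR4. The time label has no unit, although the treatment note speaks of a 4 hour dose curve with and without LPS. No label says which libraries received LPS or whether controls held proline. Nothing says that replicates came from separate mice or cultures, so p-values measure only the spread between these libraries, which may be technical.

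Halofuginone is a plant alkaloid derivative that occupies the proline site of the glutamyl-prolyl-tRNA synthetase Eprs. Uncharged prolyl tRNA then activates the kinase Gcn2, which phosphorylates eIF2 alpha, lowers general translation and raises translation of Atf4. Proline competes with the compound for the enzyme, so an excess of proline is the usual control for this target. LPS drives an early NF-kB programme of cytokines and chemokines and, through interferon beta, a later programme of interferon-stimulated genes.

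The high-dose libraries with proline stood apart from the controls in depth and in composition. They held a mean of 42525 counts ± 11755 (SD, n = 6), from 20033 to 54569, against 75617 ± 19587 (SD, n = 12) in controls (exact permutation test, two-sided, p = 0.00162, adjusted over 6 measures p = 0.00162). Rn45s, the ribosomal RNA precursor, took 65.1% ± 3.05 of counts against 38.0% ± 4.76, and the groups did not overlap. With every library thinned to 5798 counts outside Rn45s, 1920 ± 89.7 genes with a count were expected against 2174 ± 17.6. For both of these the exact adjusted p was 6.46e-05, from the smallest p that 6 against 12 libraries allow. The shallowest library was replicate 2 at 625 nM, with 20033 counts in all and 5798 outside Rn45s. In bulk RNA, fewer cells and less RNA per cell cannot be told apart. Although the labels say male, Xist had counts in all 120 libraries and 4 Y-linked genes had 3 counts in total, so the libraries go against that label.

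The cells were checked against macrophage markers. The summed level of the 46 macrophage identity genes in the table was 5889 to 9148 CPM (library counts scaled to a common depth) with halofuginone and 11260.4 to 13675 CPM in controls, with no overlap, and Marco had no count. Of 26 of these genes tested, 14 (53.8%) were lower and 0 higher, beside 33.4% and 18.6% of all genes. Csf1r, the receptor for macrophage colony-stimulating factor, had a median level of 482 CPM in the high-dose libraries, from 212 to 713, and 409 in controls, from 255 to 535. Cd68 and Itgam were also detected, with 18 and 32 counts in the high-dose libraries, whereas Lyz2, usually abundant in macrophages, had 1 count in all 18 libraries. All 7 B cell markers in the table and 13 of 14 erythroid and mast cell markers had no count. The summed level of the 12 neutrophil markers ran from 68.0 to 302 CPM with halofuginone and from 123.4 to 493 CPM in controls, with Elane, Mpo, Prtn3, Ltf and Retnlg at 0. T and NK cell markers had 5 and 25 counts in all, with 10 of 14 at 0 and sums of 0 to 90.8 against 0 to 61.7 CPM. Fibroblast and stromal markers had 9 and 12 counts, with sums of 0 to 197 against 0 to 25.1 CPM, and Col3a1, Dcn, Lum, Thy1 and Cxcl12 at 0. Dendritic cell markers summed to between 151 and 544 CPM against 556 to 1003 CPM, and the 3 that were tested, Irf8, Bst2 and Tcf4, are also expressed by macrophages and were all lower, while Flt3, Clec9a, Cd209a and Ccr9 had no count. The part of these markers in the results was not tested.

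At T4, 684 of 1315 genes tested (52.0%) differed between high-dose halofuginone with proline and control: 245 (18.6%) were higher and 439 (33.4%) lower than in controls (edgeR quasi-likelihood test, adjusted p under 0.05). The lower genes held the ribosomal proteins, respiratory chain subunits, several chemokines and interferon-stimulated genes, antigen presentation and lysosomal genes, and the higher ones held structural and nuclear RNAs, Jun, Egr1, Ppp1r15a and some interferon-stimulated genes. The median log2 fold change over all genes tested was -0.20. This split depended on the scaling. Scaled by total counts alone, with no correction for the larger Rn45s share, 45 genes were higher and 674 lower, the median moved to -0.96, and 2 of the 245 higher genes were called lower. Log2 fold changes shifted by about -0.785 under that scaling, which moves increases of the size of that of Malat1, from 1.70 to 0.92, by over 1.5 times. By the median-of-ratios factors the split was 188 to 483. The 6 and 12 libraries did not overlap in level for 216 genes (16.4%), 39 higher (2.97%) and 177 lower (13.5%). Leaving out a treated library leaves 1 at its dose, which loosens the filter on low counts. In those fits 1728 to 1752 genes were tested and not 1315, so the numbers of calls are not on the same genes. Leaving out replicate 1 at 625 nM lowered the higher calls to 106, of which 97 were among the 245, and left 449 lower. Leaving out replicate 2 at 2500 nM left 154 higher and 483 lower, and leaving out replicate 1 at 10000 nM left 163 higher and 464 lower. Without the shallow replicate 2 at 625 nM the counts were 222 and 480.

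**Figure D1:**
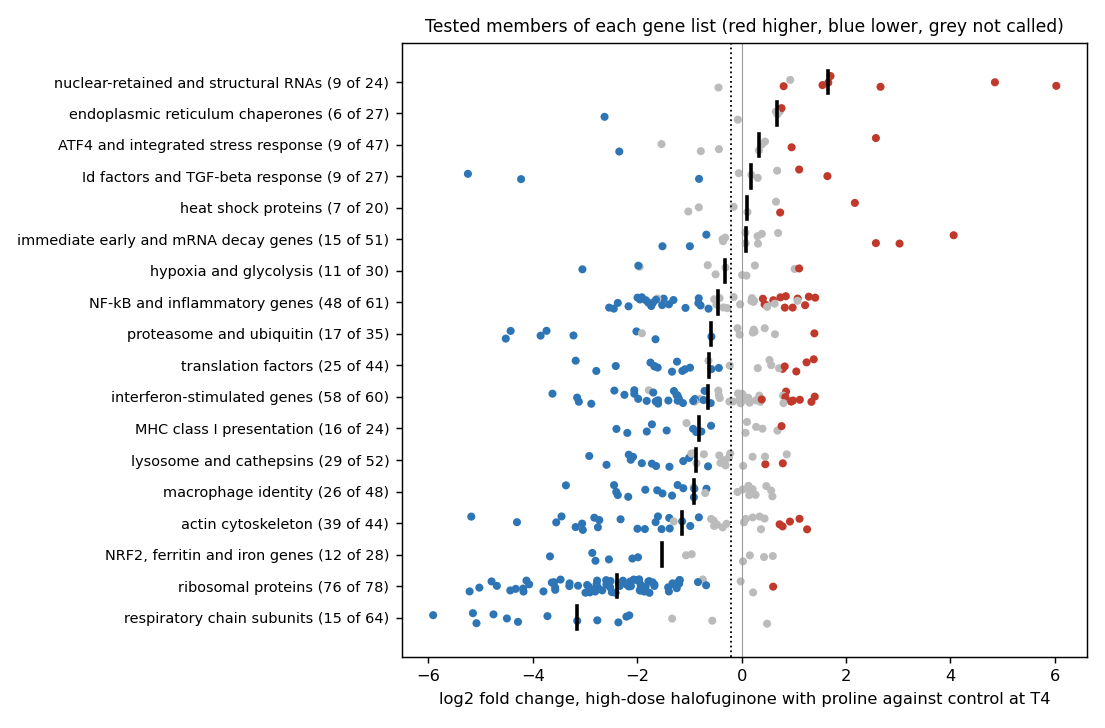
Log2 fold change at T4 (x axis, high-dose halofuginone with proline against control, 6 and 12 libraries) of every tested member of each gene list (y axis, with the number tested of the number listed). Red and blue points passed the test as higher and lower, grey points did not, black bars are list medians and the dotted line is the median of all genes tested, -0.20. Ribosomal protein genes lie almost wholly on the left, with a median of -2.38.

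Interferon-stimulated genes moved in both directions. Of 60 listed genes 58 were tested, 27 (46.6%) were lower and 9 (15.5%) higher, beside 33.4% and 18.6% of all genes, with a median log2 fold change of -0.65. Without replicate 1 at 625 nM 4 of 59 were higher and the median was -1.06, without replicate 2 at 2500 nM 6 were higher, and with no filter on low counts 3 were. Promoters of 4 of them are shown because genes with the same interferon-response letters were called in opposite directions. The higher call of Cxcl10, 1 of the 4, depended on the scaling, as given below. The motif searched was GAAA, any 2 bases and GAAA again, the core of the interferon-stimulated response element (ISRE), on both strands of the 250 bases before the gene start (RefSeq, GRCm38.p6, the assembly of the mm10 build), and matches are in capitals. Overlapping matches were counted. The Ifit1 window is chr19:34640639-34640888 on the plus strand and holds 2 matches, that of Rsad2 chr12:26456453-26456702 on the minus strand, that of Gbp5 chr3:142496684-142496933 on the plus strand and that of Cxcl10 chr5:92348890-92349139 on the minus strand, each with 1.
Ifit1: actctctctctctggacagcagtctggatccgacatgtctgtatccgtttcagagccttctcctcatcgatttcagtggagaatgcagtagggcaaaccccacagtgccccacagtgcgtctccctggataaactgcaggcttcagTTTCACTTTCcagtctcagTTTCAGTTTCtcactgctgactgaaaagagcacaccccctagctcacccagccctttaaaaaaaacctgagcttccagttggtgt
Rsad2: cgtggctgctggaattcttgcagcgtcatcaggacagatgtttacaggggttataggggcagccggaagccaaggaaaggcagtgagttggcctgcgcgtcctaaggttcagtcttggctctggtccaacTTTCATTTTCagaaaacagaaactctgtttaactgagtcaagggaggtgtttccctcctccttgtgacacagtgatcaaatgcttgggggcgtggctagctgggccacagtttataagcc
Gbp5: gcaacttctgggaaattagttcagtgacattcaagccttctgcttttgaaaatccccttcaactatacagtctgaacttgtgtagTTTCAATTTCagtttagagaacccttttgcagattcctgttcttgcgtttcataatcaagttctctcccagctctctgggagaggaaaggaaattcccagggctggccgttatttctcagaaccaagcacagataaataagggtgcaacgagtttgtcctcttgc
Cxcl10: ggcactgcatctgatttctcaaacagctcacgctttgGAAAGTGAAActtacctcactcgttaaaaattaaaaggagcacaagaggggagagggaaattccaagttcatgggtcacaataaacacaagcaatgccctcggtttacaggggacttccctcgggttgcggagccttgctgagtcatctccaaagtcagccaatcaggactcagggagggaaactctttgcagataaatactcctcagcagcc

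Of all 32851 promoters in that set, 2.98% held a match. Among the interferon-stimulated genes tested, 45 had a promoter and 22 held a match: 13 of 22 lower genes, 4 of 8 higher genes and 5 of 15 that were not called. A match is a description of the letters and not a bound site.

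Ifit1, which binds viral RNA that lacks the host cap methylation, had between 466 and 832 CPM in the 6 high-dose libraries (median 553) and between 3492 and 5300.2 CPM in the 12 controls (median 4221). The groups did not overlap, and the log2 fold change was -2.88 (SE 0.19, adjusted p = 5.96e-23). Rsad2, the antiviral enzyme viperin, lay between 2246 and 3723 CPM (median 3350.2), below every control at 10900.4 to 16226 CPM (median 13152), with a log2 fold change of -2.06 (SE 0.14, adjusted p = 4.08e-21). Its genomic neighbour Cmpk2, a mitochondrial nucleotide kinase, had medians of 511 and 1532 CPM with no overlap and fell by 1.601 on the log2 scale (SE 0.21, adjusted p = 1.12e-09). Irf7, the transcription factor that amplifies interferon production, fell by 1.23 (adjusted p = 0.000517), and by 2.08 without replicate 2 at 625 nM.

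Other members of the same programme were higher. Gbp5, a guanylate-binding protein of the inflammasome pathway, had between 680.5 and 4031 CPM (median 1778) against 489 to 1517 CPM (median 709). Replicate 2 at 625 nM, with 681 CPM, and replicate 2 at 10000 nM, with 1181 CPM, lay under the highest control, and the log2 fold change was 1.40 (SE 0.20, adjusted p = 2.05e-08). It was 0.78 without replicate 1 at 625 nM and 0.896 without replicate 1 at 10000 nM. Ddx58, the RNA sensor RIG-I, lay between 787 and 1283 CPM, above all controls at 199 to 663 CPM, and rose by 1.34 on the log2 scale (SE 0.21, adjusted p = 1.41e-07). Ifit2, a paralogue of Ifit1, had 2966 to 4635 CPM against 1622 to 2928 CPM and a log2 fold change of 0.85 (SE 0.14, adjusted p = 4.13e-07), which became 0.08 with total count scaling (adjusted p = 0.67). Cxcl10, a chemokine for T cells, had medians of 5645 and 4303 CPM in overlapping groups and a log2 fold change of 0.39 (adjusted p = 0.00622) that turned to -0.40 with total count scaling, to -0.05 with no filter on low counts, and was not called without any one of the 6 treated libraries. Isg15, a ubiquitin-like modifier, was not called at -0.16 (SE 0.18, adjusted p = 0.466) but was called lower, at -0.998 (adjusted p = 0.00203), without replicate 1 at 625 nM. With total count scaling 2 members of the list were higher and 42 lower.

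**Figure D2:**
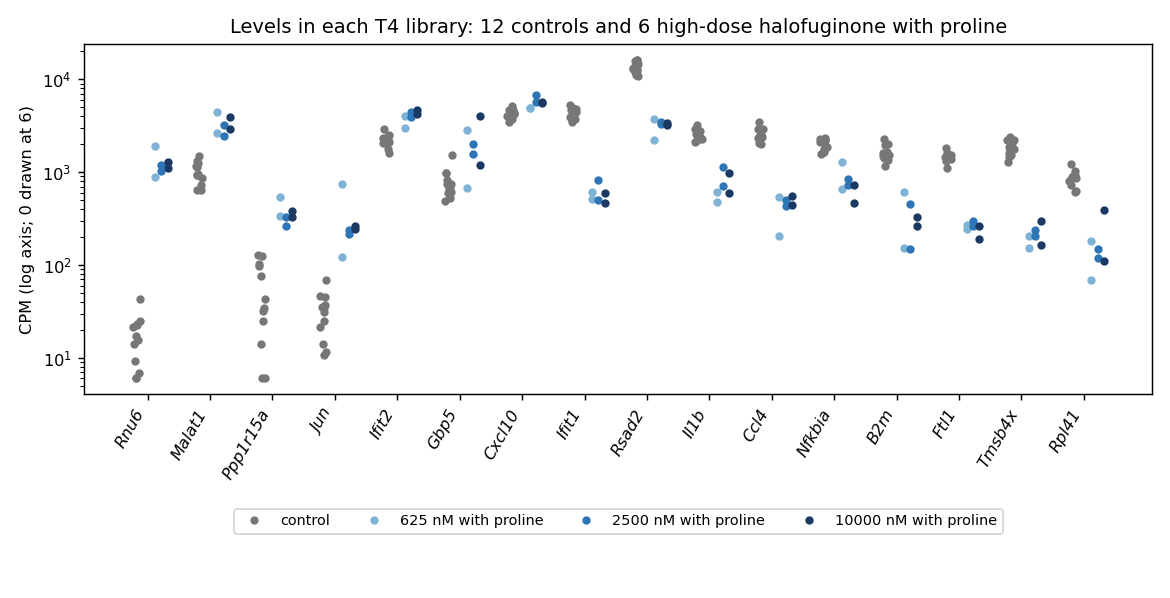
Levels of 16 named genes in each T4 library (y axis, CPM on a log axis, values of 0 drawn at 6), with grey points for the 12 controls and blue points for the 2 libraries at each of 625, 2500 and 10000 nM with proline. Ifit1 and Rsad2 lie below every control while Ifit2 lies above every control on this scale, though not called with total count scaling.

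The NF-kB and inflammatory list held genes called in either direction. Of 61 listed genes 48 were tested, 21 (43.8%) were lower and 11 (22.9%) higher, beside 33.4% and 18.6% of all genes, with a median of -0.45. With total count scaling 32 were lower and 0 higher, and with median-of-ratios scaling 22 and 6. Leaving out any one treated library left 4 to 8 higher genes of 51 tested and a median between -1.19 and -0.58, with the fewest higher without replicate 2 at 2500 nM and the lowest median without replicate 1 at 625 nM. Promoters of Nfkbia, called lower, and Cxcl1, called higher, are shown. Matches to the kappaB letters GGGA, any 2 bases and TTCC, on both strands, are in capitals. Cxcl1 had few counts, and its call was lost with total count or median-of-ratios scaling. That of Nfkbia is chr12:55492648-55492897 on the minus strand and that of Cxcl1 is chr5:90890995-90891244 on the plus strand, where matches on both strands overlap. Of all promoters 1.21% held a match, and 7 of the 33 tested list genes with a promoter did: 2 of 15 lower, 2 of 9 higher and 3 of 9 not called.
Nfkbia: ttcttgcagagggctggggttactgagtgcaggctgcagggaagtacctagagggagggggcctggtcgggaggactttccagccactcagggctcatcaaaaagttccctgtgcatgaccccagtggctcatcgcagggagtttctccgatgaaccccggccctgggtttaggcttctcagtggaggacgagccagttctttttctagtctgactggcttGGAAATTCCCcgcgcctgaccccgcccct
Cxcl1: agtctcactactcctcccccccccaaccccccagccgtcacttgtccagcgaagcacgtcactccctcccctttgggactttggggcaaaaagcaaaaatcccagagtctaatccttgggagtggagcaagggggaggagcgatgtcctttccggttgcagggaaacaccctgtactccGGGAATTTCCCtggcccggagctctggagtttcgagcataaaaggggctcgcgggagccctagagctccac

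The chemokine gene Ccl4 had 204 to 558 CPM (median 469.7) against 2021 to 3439 CPM (median 2411), with no overlap and a log2 fold change of -2.45 (SE 0.20, adjusted p = 8.27e-18). Ccl3 fell by 1.73 and Ccl5 by 1.70 on the log2 scale (adjusted p = 4.18e-11 and 4.36e-12), each with every high-dose library below every control. Among cytokines, Il1b, the inflammasome substrate, had 476 to 1148 CPM (median 659) against 2136 to 3199 CPM (median 2477) and fell by 1.79 (SE 0.18, adjusted p = 5.97e-14). Il6 had 9 counts in the 6 libraries and 287 in controls, with a log2 fold change of -2.54 (adjusted p = 1.58e-05). Irg1, which makes itaconate, fell by 1.83 (adjusted p = 1.07e-11). Nfkbia, the inhibitor that NF-kB itself induces, had 466 to 1293 CPM against 1554 to 2356 CPM and fell by 1.393 (SE 0.18, adjusted p = 4.90e-10).

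Tnf was not called, at 165 to 749 CPM (median 305) against 180.5 to 411 CPM (median 277) and a log2 fold change of 0.24 (SE 0.27, adjusted p = 0.474). Cxcl2, a neutrophil chemokine, was not called either, at 0.20 (SE 0.21, adjusted p = 0.452), and with total count scaling it was called lower at -0.58. Cxcl1, another neutrophil chemokine, had 26 counts against 53, with a log2 fold change of 1.29 (SE 0.53, adjusted p = 0.037) that was not called with either other scaling or without any one treated library except replicate 2 at 10000 nM, nor without control replicate 6. The remaining members called higher, named here to complete the count, were Birc3, Cd83, Il1a, Tnfaip3, Ptgs2, Nos2, Ccl9, Csf1, Cflar and Marcksl1.

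Immediate early genes and the stress response downstream of Atf4 were mostly not testable at this depth. Of 51 immediate early and mRNA decay genes 15 were tested, 3 rose and 3 fell (20.0% each, beside 18.6% and 33.4% of all genes), and 8 fell with total count scaling. Ppp1r15a, Jun and Egr1 were low in controls and passed the filter on low counts through halofuginone libraries, which raises the share that rose. With no filter 3 of 49 rose and 3 fell (6.12% each), beside 71 and 680 of 11796 genes. Ppp1r15a, the phosphatase subunit that reverses eIF2 alpha phosphorylation, had 265 to 545 CPM (median 336) against 0 to 129 CPM (median 38.6). Every high-dose library was above every control, and the log2 fold change was 2.57 (SE 0.37, adjusted p = 1.81e-08). Jun, an AP-1 subunit, lay at 121 to 749 CPM (median 241) against 10.6 to 68.9 CPM (median 33.0), with a log2 fold change of 3.03 (SE 0.44, adjusted p = 4.05e-08). Egr1, a zinc finger factor, had 25 counts against 5, no count in replicate 1 at 625 nM, and a log2 fold change of 4.06 (SE 0.91, adjusted p = 0.000166), which became 2.49 with an adjusted p of 0.99 without replicate 2 at 625 nM. Maf, Pim1 and Klf6 were the members that fell.

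Of 47 genes of the Atf4 and integrated stress response list 9 were tested, and Ppp1r15a and Nupr1 were higher (22.2%) and Cdkn1a lower (11.1%), beside 18.6% and 33.4% of all genes. With total count scaling 1 was higher and 2 lower, and without replicate 1 at 625 nM 1 and 1 of 11. Ppp1r15a passed the filter on low counts through halofuginone libraries, and with no filter 1 of 39 list genes was higher (2.56%) and 3 lower (7.69%). Atf4 itself had 15 counts against 71 and a log2 fold change of 0.33 (SE 0.57, adjusted p = 0.65), and Atf3 31 counts against 106 and 0.39 (SE 0.53, adjusted p = 0.56). Ddit3 had no count against 14 in controls, and Asns, the asparagine synthetase, 1 against 10, so neither was tested. Nupr1 had a log2 fold change of 0.96 (adjusted p = 0.0362) that turned to -1.36 without replicate 1 at 625 nM and was not called without any other treated library except replicate 2 at 625 nM, or without control replicate 5, 6, 8 or 10. Cdkn1a, the cyclin-dependent kinase inhibitor p21, had 88.3 to 411 CPM (median 159) against 757 to 1402 CPM (median 971) and fell by 2.34 (SE 0.27, adjusted p = 1.35e-11). Of the target pathway, Eprs had 13 counts against 55, at medians of 51.2 and 37.8 CPM, and was not tested. Only 1 of 23 cytosolic tRNA synthetase genes and 2 of 20 genes of proline metabolism and transport were tested, and Slc38a1, an amino acid transporter with 23 counts against 34, was called higher at 1.69 (SE 0.71, adjusted p = 0.0388), though not with total count scaling (0.95). It was also not called without control replicate 7 or any treated library except replicate 1 at 625 nM, and was at 0.32 without replicate 2 at 2500 nM.

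Structural and nuclear RNAs formed the list with the greatest share of higher genes: 7 of 9 tested (77.8%), beside 18.6% of all genes. Their median log2 fold change was 1.66. With total count scaling 6 were higher and 1 lower. With no filter on low counts 6 of 15 (40%) were higher, beside 71 of 11796 genes, and the median was 0.38. Rnu6 and Rn4.5s were low in controls and passed that filter through halofuginone libraries, which raises the share of higher genes. Rnu6, the spliceosomal U6 RNA, had 878 to 1905 CPM (median 1143) against 0 to 43.1 CPM (median 16.5). The groups did not overlap, and the log2 fold change was 6.03 (SE 0.35, adjusted p = 2.86e-25). Rn4.5s, a small rodent RNA, had 757 to 2518 CPM against 0 to 91.4 CPM, the highest in replicate 2 at 625 nM, and a log2 fold change of 4.85 (SE 0.30, adjusted p = 3.59e-24). Malat1, a long RNA kept in the nucleus, had 2473 to 4479 CPM (median 3083) against 639.8 to 1499 CPM (median 945), with a log2 fold change of 1.70 (SE 0.16, adjusted p = 2.40e-14). Rpph1, the RNA of ribonuclease P, rose by 1.66 and Rn45s by 1.55 on the log2 scale. Over the alternative fits their lowest values were 0.89 and 0.78. Rnu6, Rpph1 and Rn45s are background examples of transcripts without a poly(A) tail.

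Ribosomal protein genes fell nearly throughout. Of 78 genes 76 were tested, and 72 (94.7%) were lower and 1 (1.32%) higher, beside 33.4% and 18.6% of all genes. The summed level of the list was 7154 ± 974 CPM (SD, n = 6) against 24832 ± 3112 CPM (SD, n = 12), from 5800.3 to 8793 against 19453 to 29247, with no overlap. Their median log2 fold change was -2.38, and -3.16 with total count scaling. Rpl41 had 68.0 to 394 CPM (median 133) against 612 to 1226 CPM (median 870), with a log2 fold change of -2.35 (SE 0.30, adjusted p = 5.95e-10). The member called higher was Rpl5, at 0.60 (adjusted p = 0.0473), whose level was 2239.7 CPM in replicate 1 at 625 nM and 219 to 570.3 CPM in the other 5 libraries, and which turned to -0.13 without that library and to -0.17 with total count scaling. It was called in only 1 of the other 5 treated leave-outs, that of replicate 2 at 625 nM, and was lost without control replicate 1, 2, 5, 7, 8, 9 or 11. Ribosomal protein genes have many processed pseudogenes, and how shared reads were counted is not given in the sources used here.

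Among translation factors 14 of 25 tested fell (56.0%) and 5 rose (20.0%), beside 33.4% and 18.6% of all genes, with a median of -0.63. With total count scaling 16 fell and 0 rose (median -1.41), and without replicate 1 at 625 nM 13 fell and 2 rose of 29 (median -1.35). Without replicate 1 at 10000 nM 2 rose, and without either library at 2500 nM 3 did. Fau, which encodes a ribosomal protein fused to a ubiquitin-like one, and Gnb2l1, the ribosomal scaffold Rack1, fell by 2.41 and 2.78 on the log2 scale, and by 4.38 and 4.33 without replicate 1 at 625 nM. Tpt1, a growth-related protein, had 3743 to 7569 CPM against 2092 to 4169.7 CPM and a log2 fold change of 1.05 (SE 0.14, adjusted p = 8.12e-09), and 0.26 with total count scaling (adjusted p = 0.11). Eif4g1, the scaffold of the cap-binding complex, rose by 1.38 (adjusted p = 0.000549) but was not called with total count scaling, at 0.61.

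Of 64 respiratory chain subunits 15 were tested and 12 (80%) fell, beside 33.4% of all genes. The median log2 fold change of the 15 was -3.15, or -2.36 with the 8 members that had 3 or fewer counts in the high-dose libraries set at the bound that 3 counts in the whole group allow. Those 8 passed the filter through other libraries, where they are higher, which raises the share that fell. With no filter on low counts 29 of 64 (45.3%) fell, beside 680 of 11796 genes. Atp5l, a subunit of ATP synthase, and Cox5a, of cytochrome oxidase, had no count in the 6 libraries. Atp5l had 134 in the controls, which makes it at least 7.34-fold lower. Cox4i1, of the same oxidase, had 1 count against 165. Of the proteasome and ubiquitin list 8 of 17 tested genes fell (47.1%) and 1 rose (5.88%), beside 33.4% and 18.6% of all genes. The mitochondrial chaperone Hspa9 had 204 to 1001 CPM against 37.6 to 201 CPM and rose by 2.17 (SE 0.33, adjusted p = 9.96e-08), and the cytosolic chaperone Hspa8 by 0.74 (adjusted p = 0.00175), which became -0.04 with total count scaling and was not called without replicate 1 at 625 nM or replicate 1 at 2500 nM.

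Genes of macrophage function were lower or not called. On the macrophage identity list 14 of 26 tested genes fell (53.8%) and 0 rose, beside 33.4% and 18.6% of all genes. Lgals3, a galectin of activated macrophages, had 219 to 492 CPM (median 331) against 1475 to 2411 CPM (median 1825) and fell by 2.40 (SE 0.21, adjusted p = 2.07e-16). Cd14, the LPS co-receptor, had 20 counts against 647 and fell by 2.37 (SE 0.33, adjusted p = 1.36e-08), or by 4.45 without replicate 2 at 10000 nM, and Spp1, osteopontin, fell by 1.617. Csf1r was not called at 0.13 (SE 0.26, adjusted p = 0.697), and was called lower, at -0.65, with total count scaling.

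In antigen presentation by MHC class I, 9 of 16 tested genes fell (56.2%) and 1 rose (6.25%), beside 33.4% and 18.6% of all genes. B2m, the invariant light chain, had 147 to 612 CPM (median 296) against 1172 to 2262 CPM (median 1541) and fell by 2.40 (SE 0.26, adjusted p = 1.27e-12), and the heavy chain gene H2-D1 fell by 1.82 (adjusted p = 6.61e-08). MHC genes resemble each other, so the share of single members is uncertain. Calr, a chaperone of the peptide-loading complex, was the higher one, at 0.76 (adjusted p = 0.00498), and was at -0.01 with total count scaling and -0.00567 without replicate 1 at 625 nM. It was not called by DESeq2 or without replicate 2 at 2500 nM or replicate 1 at 10000 nM. Of lysosomal genes 14 of 29 fell (48.3%) and 2 rose (6.9%), beside 33.4% and 18.6% of all genes, and 21 fell and 0 rose with total count scaling. Without any one treated library 1 rose. Ctsb, a cysteine protease, had 262 to 546 CPM against 1012 to 1747 CPM and fell by 1.91 (SE 0.20, adjusted p = 1.22e-12), and its inhibitor Cst3 fell by 2.59 (SE 0.28, adjusted p = 1.71e-12).

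Iron and redox genes included 6 lower of 12 tested (50.0%) and 0 higher, beside 33.4% and 18.6% of all genes. Ftl1, the ferritin light chain, had 192 to 294 CPM (median 262) against 1099 to 1832 CPM (median 1463) and fell by 2.54 (SE 0.22, adjusted p = 1.98e-16). The metallothionein gene Mt2 fell by 2.86, or by 4.56 without replicate 1 at 2500 nM. The peroxiredoxin gene Prdx1 fell by 3.67, by 2.46 when the 3 doses were fitted as 1 group and by 5.78 without replicate 1 at 625 nM. In the actin cytoskeleton list 21 of 39 tested genes fell (53.8%) and 5 rose (12.8%), beside 33.4% and 18.6% of all genes. The higher ones numbered 0 with total count scaling (30 lower), 2 with median-of-ratios scaling, 1 without replicate 1 at 625 nM, 2 without replicate 1 at 2500 nM, and 3 without replicate 2 at 2500 nM or replicate 1 at 10000 nM. Tmsb4x, the actin-sequestering thymosin, had 151 to 295 CPM (median 205) against 1280.3 to 2419 CPM (median 1825) and fell by 3.18 (SE 0.24, adjusted p = 7.98e-19). Actb lay at 5539 to 7066 CPM against 10468 to 14048 CPM and fell by 0.98 (SE 0.12, adjusted p = 6.64e-11). Ccnd2, a G1 cyclin, fell by 2.66 (SE 0.23, adjusted p = 2.68e-16).

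The 10 abundant genes with the largest decreases included Mmp14, Pfn1, Rpl7a, AA467197, Rps29, S100a6, Rpl18 and Rps18, each with 2 to 7 counts in the 6 high-dose libraries. Mmp14, a membrane metalloprotease, had 4 counts against 482, with levels of 0 to 54.8 CPM against 329 to 764 CPM, and a log2 fold change of -5.24 (SE 0.62, adjusted p = 4.60e-11). A dose with no count lowers such an estimate, and with the doses fitted as 1 group it was -4.22. Pfn1, profilin, had 2 counts against 231, and Rpl7a 2 against 211. Among the 10 largest increases of genes at or above the median abundance with all 6 libraries above the control mean, which leaves out Egr1 (4.06) and Jun (3.03), Rnu6, Rn4.5s, Ppp1r15a, Hspa9, Malat1 and Rpph1 are given above, and the others were Hnrnpul2 (2.05), Aplp2 (2.04), Riok3 (1.73) and Ranbp2 (1.69), where the values are log2 fold changes, all with adjusted p under 0.05. Skil, an inhibitor of Smad signalling, rose by 1.64 (adjusted p = 8.97e-08).

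Calls differed with the length of the gene. The merged exon length of 1307 tested genes, from the GENCODE M21 annotation of GRCm38, had a median of 6.58 kb for higher genes, 2.91 kb for lower genes and 5.41 kb for genes not called. Among the shortest genes (0.11 to 2.68 kb) 25 genes were higher and 200 lower, and among the longest (7.64 to 93.09 kb) 95 and 41. Across genes, which are not independent replicates, Spearman's rho of length with the log2 fold change was 0.417, and 0.363 over 1229 genes without ribosomal protein genes. The part of length in the results above was not tested.

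**Figure D3:**
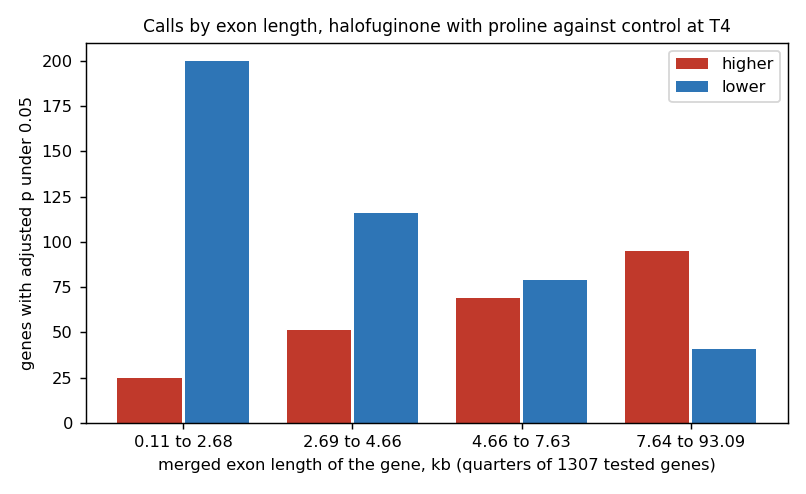
Number of genes called higher (red) or lower (blue) at T4 in each of 4 equal classes of merged exon length (x axis, kb). Lower calls go from 200 in the shortest class to 41 in the longest, and higher calls from 25 to 95.

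The 3 doses were then compared among themselves. Against the same 12 controls, 96 genes (7.30%) were higher and 185 (14.1%) lower at 625 nM, 162 (12.3%) and 260 (19.8%) at 2500 nM, and 156 (11.9%) and 234 (17.8%) at 10000 nM, which makes 21.4%, 32.1% and 29.7% in all. These counts rest on 2 libraries a dose. Leaving 1 of them out also loosens the filter, so 1728 to 1752 genes were tested in the fits that follow and not 1315. Without replicate 1 at 625 nM that dose had 15 higher and 53 lower genes. At 2500 nM there were 81 and 126 without replicate 1 and 55 and 128 without replicate 2. At 10000 nM there were 54 and 70 without replicate 1 and 62 and 122 without replicate 2. Ifit1 had log2 fold changes of -2.96, -2.66 and -3.02 at the rising doses, Ccl4 of -2.57, -2.44 and -2.34, Malat1 of 1.85, 1.498 and 1.76, and ribosomal protein genes had medians of -2.28, -2.17 and -2.13. Between 10000 and 625 nM, a comparison of 2 libraries against 2 that does not use the controls, 2 of 1315 genes (0.152%), 1 higher (0.0760%) and 1 lower (0.0760%), passed the test by edgeR and 0 by DESeq2, and 133 had an unadjusted p under 0.05. Slfn9 was higher at 10000 nM by 4.14 on the log2 scale (SE 0.97, adjusted p = 0.0368), with 1262 and 229.7 CPM against 60.5 and 0 CPM. Rpl5 fell by 2.34 (SE 0.54, adjusted p = 0.0368), with 219 and 361 CPM against 2239.7 and 408 CPM. Slfn9 was not called without replicate 1 at 10000 nM or without either library at 625 nM, and Rpl5 not without replicate 1 at 625 nM or without either library at 10000 nM. For genes with many counts the 95% intervals of the difference between doses were from -0.45 to 0.66 for Rsad2 and from -0.36 to 0.57 for Actb, in log2 units, and for Cd14, with few counts, from -1.95 to 1.37.

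With against without proline, 6 libraries against 6 at matched doses, 0 of 1315 genes (0%) passed the test by edgeR or by DESeq2, with 145 at an unadjusted p under 0.05 and a lowest adjusted p of 0.102. Some alternatives did call genes: 2 higher and 2 lower without replicate 1 at 2500 nM with proline, 2 and 1 without replicate 2 at 625 nM with proline, 3 higher without replicate 2 at 2500 nM without proline, and 1 higher without structural RNAs, without libraries under 30000 counts or with the replicate block. Rpl5, at 1.43 with against without proline (adjusted p = 0.102), was called in 4 alternatives. The median log2 difference over all genes was 0.00. The Rn45s share was 65.1% ± 3.05 with and 64.6% ± 2.22 without proline (exact permutation test, two-sided, p = 0.777, adjusted over 6 measures p = 0.929). Intervals bound the difference for the well-counted genes. The difference with minus without proline in Rsad2 was -0.01 (95% interval -0.32 to 0.31), in Ifit1 -0.03 (-0.49 to 0.44), in Malat1 0.15 (-0.24 to 0.54) and in Actb -0.03 (-0.30 to 0.23). Ccl5 had 0.91 (0.41 to 1.41), an interval not adjusted for the genes tested. For ribosomal protein genes the median difference was 0.03.

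**Figure D4:**
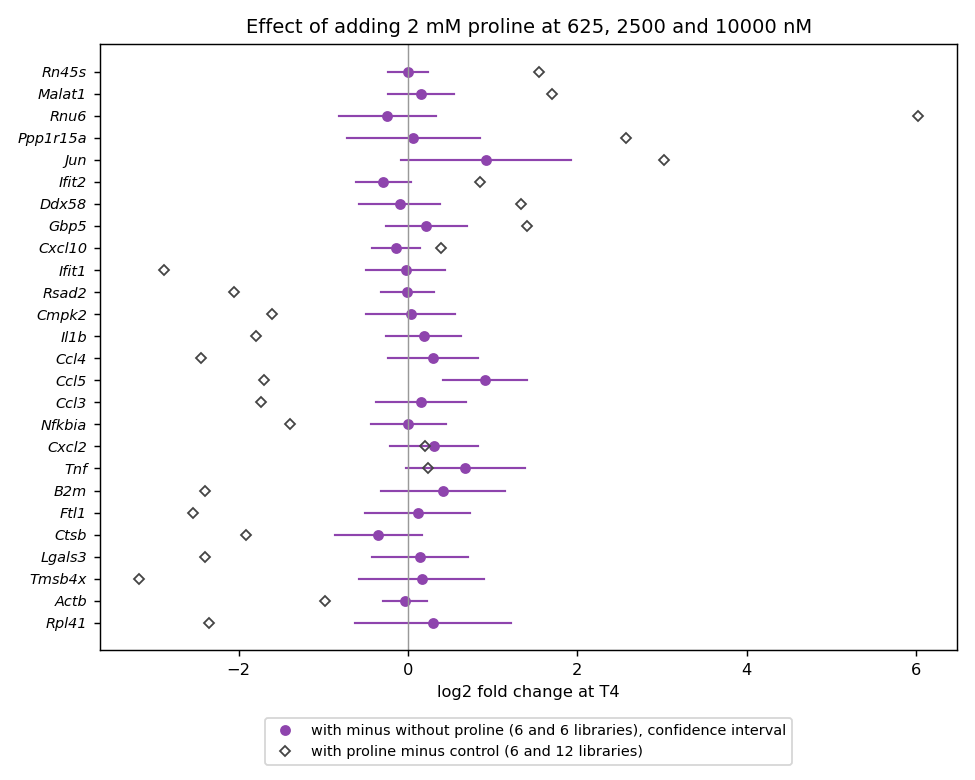
Log2 fold changes at T4 for 26 genes. Filled purple points with bars are the difference with minus without proline at 625, 2500 and 10000 nM (6 libraries against 6) with its 95% interval, and open diamonds are the high-dose libraries with proline against control (6 against 12); the bar of Rsad2 spans -0.32 to 0.31 while its diamond is at -2.06.

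Lower doses with proline did not all look alike, and their values are given side by side with no test of the doses against each other. At 39 nM the libraries with proline had 15253 and 21035 CPM of Rsad2 and those without had 5982 and 3958 CPM. Il1b had 2691 and 2647 CPM with and 715 and 1190.2 CPM without proline at that dose. At 156 nM with proline Rsad2 had 5397 and 3821 CPM, and the Rn45s share was 65.8% on average, against 40.3% at 39 nM with proline and 64.0% at 39 nM without. Between 625 and 10000 nM the values with and without proline overlapped for Rsad2, Ifit1, Il1b and Ccl4.

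**Figure D5:**
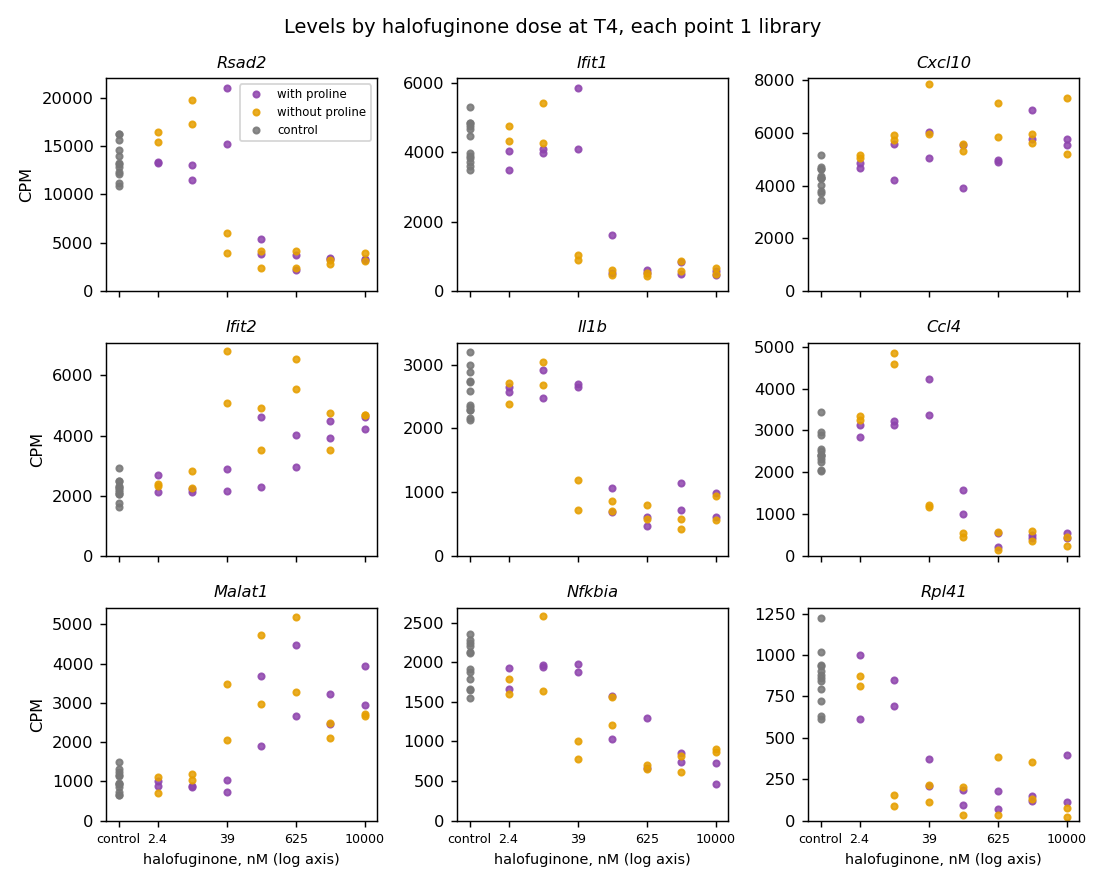
Level of 9 genes (y axis, CPM) by halofuginone dose (x axis, nM, log axis, with controls placed at the left) at T4, each point 1 library: purple with proline, orange without, grey control. At 39 nM Rsad2 is at 15253 and 21035 CPM with proline and at 5982 and 3958 CPM without.

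Since no label gives proline to the controls, the high doses were also set against 2.4 nM halofuginone with proline, 6 libraries against 2. Of 1315 genes 479 (36.4%) were called, 139 (10.6%) higher and 340 (25.9%) lower. Ifit1 fell by 2.70 (adjusted p = 4.50e-15), Il1b by 1.82 (adjusted p = 3.28e-09) and Tmsb4x by 3.26 (adjusted p = 2.98e-14) on the log2 scale, while Malat1 rose by 1.81 (adjusted p = 1.40e-06) and Jun by 4.51 (adjusted p = 8.12e-05). Of the ribosomal protein genes 65 of 76 fell and none rose, and of the interferon-stimulated genes 23 of 58 fell and 7 rose. Cxcl2 was higher by 1.101 (adjusted p = 0.00962) and Cxcl10 was not called, at 0.23 (adjusted p = 0.365). Without 1 of the libraries at 2.4 nM the higher calls were 44 or 66, and without replicate 1 at 625 nM they were 57.

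The effect at T4 was tested against the effect of the same doses with proline at T0 and T1, each relative to its own 12 controls. Relative to T0, the effect at T4 was more positive for 8 of 1655 genes (0.483%) and more negative for 219 (13.2%), 227 in all (13.7%). The more negative ones held 29 of 49 tested NF-kB and inflammatory genes, 14 of 27 immediate early genes and 2 of 56 interferon-stimulated genes. At T0, Cxcl2 was at 3059.6 ± 586 CPM (SD, n = 6) with halofuginone and 28.1 ± 29.3 CPM (SD, n = 12) in controls, Il1b at 552 ± 259 and 17.2 ± 21.6 CPM, and Ccl4 at 569.7 ± 178 and 25.8 ± 16.5 CPM, on a scale shared by T0, T1 and T4. The difference of the effects, T4 less T0, was -6.59 for Cxcl2 (SE 0.33, adjusted p = 2.85e-31), -6.76 for Il1b (SE 0.36, adjusted p = 2.75e-29) and -6.95 for Ccl4 (SE 0.32, adjusted p = 1.35e-33) in log2 units. Nfkbia differed by -4.56 and Tnf by -4.59, both called. Rsad2, at 70.8 ± 47.5 and 92.3 ± 52.0 CPM at T0, differed by -1.70 (SE 0.55, adjusted p = 0.0374).

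Relative to T1, the effect at T4 was more positive for 4 genes (0.242%) and more negative for 46 (2.78%), 50 of 1655 in all (3.02%). Rnu6 was more positive at T4 by 1.84 (SE 0.45, adjusted p = 0.00805), with 1456 ± 676 CPM at T1 with halofuginone and 83.0 ± 45.6 CPM in controls. Ccl4 differed by -1.08 (SE 0.25, adjusted p = 0.00395) and Nfkbia by -1.71. Basp1, a membrane-associated signalling protein, differed by -4.65 (SE 0.67, adjusted p = 3.91e-07): at T1 it was at 531 ± 251 CPM with halofuginone and 307 ± 79.4 CPM in controls, and at T4 it had 4 counts against 194. Both T4 libraries at 625 nM were at 0 CPM, so the size for Basp1 is a fitted value that depends on the prior count. Its effect at T4, -3.77, ran from -5.10 to -2.48 over the alternatives. Differences for Rsad2, Malat1 and Rpl41 were -0.21, 0.26 and -0.15 and were not called. No interferon-stimulated gene of 56 passed the test against T1, and 4 of 49 NF-kB and inflammatory genes did.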

How the data were processed

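RNA was measured by 3' digital gene expression, a modified SCRB-Seq protocol with random-hexamer second strands and a modified Nextera step, per the labels' protocols. The authors deposited a raw count per gene symbol (23481 symbols) and library, and the submitters' processing notes name BWA and the mm10 build. Not given in the sources used here: the counting program, its annotation, strandedness, and whether molecular identifiers were used.

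Counts were fitted in R 4.3.3 with edgeR 4.0.16 (quasi-likelihood, TMM, filterByExpr with a minimum count of 10, Benjamini-Hochberg threshold 0.05, two-sided): 40 T4 libraries with 1 mean per dose and proline group for 7 comparisons, and 54 libraries for the 2 comparisons of time. DESeq2 1.42.0 was an alternative. The script was tested on simulated data. An SE here is derived from each test's F statistic (size of the log2 fold change over the root of F), and can be too small at few counts. CPM levels use TMM-scaled library sizes, so a library's values need not add up to the nominal total. Intervals cover the fit's error only.

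Of the 153 pairs among the 18 libraries none were identical, and counts of the 3 dose pairs differed beyond sampling noise. Genes were named by a rule: the 10 largest called changes each way among genes at or above the median abundance, with all 6 libraries on the same side of the control mean and without predicted genes or pseudogenes, the 5 members of each list with the smallest p, and 25 genes always named. The dose groups, the 29 lists and the rule were chosen with earlier results of these data known. In the comparison of time, genes were named by the 5 largest changes each way. Genes named to complete a count were chosen after their values were seen. A few genes that this rule names are not reported here.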

Additional observations from a re-analysis of the deposited data

Results flagged for a closer look

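Of 47 values examined over the 6 high-dose libraries with proline, 11 held a library that stood far from the other 5. Replicate 2 at 625 nM was that library in 8: it had the lowest total (20033), the fewest counts outside Rn45s (5798), the highest Rn45s share (71.1%) and the fewest genes with a count (1761), and it stood apart for Rn4.5s (2518 CPM), Rsad2 (2246 CPM), Jun (749 CPM) and Cxcl2 (2041 CPM). Replicate 1 at 625 nM stood apart for Pfn1 (60.5 CPM), with the other 5 at 0, replicate 2 at 2500 nM for S100a6 (95.0 CPM), and replicate 2 at 10000 nM for Rpl41 (394 CPM).

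The effect at T4 differed from that at T0 by the test of the difference itself, more positive for 8 genes and more negative for 219. Among named genes it was more positive for Rnu6 (2.11), Ctnna1 (1.99), Clint1 (1.65), Stxbp3a (1.64) and Rn45s (0.53), and more negative for Cxcl3 (-7.04), Ccl4 (-6.95), Ccl7 (-6.93), Il1b (-6.76) and Cxcl2 (-6.59), in log2 units. From T1 it differed as more positive for 4 genes and more negative for 46. These included Ppp6r3 (2.14), Rnu6 (1.84), Nap1l1 (1.75), Basp1 (-4.65), Rpl7a (-4.15), Cd53 (-4.03), Serf2 (-3.64) and Rpl15 (-3.29). Rpl7a, Serf2 and Rpl15 had 2 counts each, Cd53 3 and Basp1 4 in the 6 T4 libraries. The differences for these genes are fitted values that depend on the prior count and no measured size. The sizes against T0 for Cxcl2, Il1b and Ccl4 rest on few counts in the T0 controls, whose low levels are given above.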

How the results depend on the processing

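Numbers of calls, higher and lower, depended on scaling and on filtering. With total count scaling they were 45 and 674 for the high doses against control (245 and 439 as reported), 26 and 425 at 625 nM, 48 and 461 at 2500 nM, 36 and 469 at 10000 nM, and 20 and 580 against 2.4 nM, and 2 genes were more positive at T4 than at T1. The signs of Calr (-0.014), Hspa8 (-0.039), Cxcl2 (-0.58), Cxcl10 (-0.40), Csf1r (-0.65) and Rpl5 (-0.17) then turned. With no filter on low counts, where 11796 genes were tested and not 1315, the numbers were 71 and 680 for the high doses. The higher calls were then 35, 70 and 74 at the rising doses and 22 against 2.4 nM. Cxcl10 turned to -0.050, no gene differed between 10000 and 625 nM (0 and 0), 5 genes were more positive at T4 than at T0, and 18 more negative than at T1. By median-of-ratios scaling 21 genes were more positive than at T0 and 29 more negative than at T1. DESeq2 called 102 genes higher at 2500 nM, 0 and 0 between 10000 and 625 nM, 25 and 136 of 853 tested against T0, and 14 of 725 more positive than at T1. Without Rn45s, Lars2 and structural RNAs the higher calls were 63 at 625 nM, 96 at 10000 nM, 86 against 2.4 nM and 1 with against without proline. Without libraries under 30000 counts they were 0 between 10000 and 625 nM and 1 with against without proline. Without 625 nM Rpl5 was at -0.066. With the 3 doses fitted as 1 group, an alternative chosen after seeing the data, 300 genes were higher and 396 lower.

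Leaving out 1 library at a time gave 106 to 255 higher and 415 to 486 lower genes for the high doses, 15 to 104 and 53 to 190 at 625 nM, 55 to 170 and 126 to 264 at 2500 nM, 54 to 161 and 70 to 236 at 10000 nM, 44 to 133 higher against 2.4 nM, 0 to 1 each way between 10000 and 625 nM, 0 to 3 and 0 to 2 for proline, 1 to 10 more positive than at T0 and 2 to 6 more positive than at T1. Calr ranged from -0.00567 to 0.88, Nupr1 from -1.36 to 1.09 and Rpl5 from -0.13 to 0.73, the lowest without replicate 1 at 625 nM. A lone library left at a dose is assumed to vary like the other groups. It also loosens the filter: without a treated library 1728 to 1752 genes were tested for the high doses and not 1315. With the replicate number as a block, the calls were 103 and 290 for the high doses, 39 and 102, 81 and 144, and 64 and 124 at the rising doses, and 1 higher with proline. At T4 the numbers 3 to 12 belong to 1 control library each, so under this block only control replicates 1 and 2 inform the comparison with control. The part of this loss of controls in the lower numbers was not tested. The labels do not say whether same-numbered libraries share more than the number. Correlations of deviations between same-numbered libraries ran from 0.00068 to 0.126 over 552 genes. Counting noise lowers such correlations, so these values cannot tell whether a culture or plate was shared. The cause of these changes was not tested. Depth limits the lower calls, since a gene at 3 or fewer counts in the high-dose libraries has only a bound.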
